A study of Homo sapiens with 3 samples.

Results

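The aldo-keto reductases described here are 10 genes, AKR1A1, AKR1B1, AKR1B10, AKR1C1, AKR1C2, AKR1C3, AKR1C4, AKR1D1, AKR7A2 and AKR7A3, picked by symbol from a deposited table of 21572 genes, where all 10 have a row. Their RNA was measured by sequencing in Hep-G2, an established hepatoma-derived human cell line, at passage 21. The sh#7 library came from cells with the hairpin RNA TRCN0000246247 against FTO, the sh#2 library from cells with TRCN0000255402 against FTO, and the control library from cells with the scrambled hairpin SHC002. FTO encodes an RNA demethylase, and the series' design calls its knockdown stronger in sh#7 than in sh#2. Each group is 1 library, and the labels do not say whether a line was a single clone or a pool. No difference below therefore has a replicate check or a p-value, and an effect of FTO cannot be told apart from an effect of a line.

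Aldo-keto reductases are soluble enzymes that use NADPH to reduce aldehydes and ketones to alcohols. In the liver they act on steroids, bile acid precursors, prostaglandins, retinal, sugars and the reactive aldehydes left by lipid oxidation or by toxins. Several of their genes, among them AKR1B10 and the AKR1C genes, are known targets of the oxidative stress factor NRF2. The genes stand in groups on the chromosomes: AKR1C1, AKR1C2, AKR1C3 and AKR1C4 follow in that order on chromosome 10, with AKR1C8 between the last pair, AKR1B1 and AKR1B10 are neighbouring protein-coding genes on chromosome 7, and AKR7A2 neighbours AKR7A3 on chromosome 1.

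Because the AKR1C genes are close copies, their sequences bear on every value given for them. The coding sequences of AKR1C1 and AKR1C2, both 972 bases long in GENCODE 29, differed at 19 positions, an identity of 98.0%. AKR1C1 differed from AKR1C3 at 83 positions and from AKR1C4 at 112. The stretch from base 13 to base 162 of the coding sequence is shown because it holds 11 of the 19 positions at which AKR1C1 and AKR1C2 differ. Capitals in AKR1C1 mark bases that differ from AKR1C2, and capitals in the other lines mark bases that differ from AKR1C1.
AKR1C1: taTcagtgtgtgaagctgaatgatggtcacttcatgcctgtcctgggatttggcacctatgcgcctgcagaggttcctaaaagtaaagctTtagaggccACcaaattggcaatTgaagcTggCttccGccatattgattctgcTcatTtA
AKR1C2: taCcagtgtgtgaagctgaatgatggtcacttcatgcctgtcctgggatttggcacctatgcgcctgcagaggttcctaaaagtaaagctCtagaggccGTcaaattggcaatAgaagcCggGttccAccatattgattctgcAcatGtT
AKR1C3: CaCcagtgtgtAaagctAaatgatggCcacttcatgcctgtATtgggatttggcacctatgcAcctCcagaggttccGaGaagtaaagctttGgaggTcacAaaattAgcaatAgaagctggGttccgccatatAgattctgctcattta
AKR1C4: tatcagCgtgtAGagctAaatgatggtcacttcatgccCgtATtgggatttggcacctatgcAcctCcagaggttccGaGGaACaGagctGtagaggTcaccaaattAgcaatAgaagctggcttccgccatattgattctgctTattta
The last 189 bases of the coding sequence, from base 784 to base 972, were the same in AKR1C1 and AKR1C2. Of all 50-base stretches of the AKR1C2 coding sequence, 57.2% also occurred in the coding sequence of another gene of the set or of AKR1B15, and of all 100-base stretches 26.7% did. The shares for AKR1C1 were 53.8% and 21.0%, for AKR1C3 23.0% and 9.74%, and for AKR1C4 12.1% and 0.687%. AKR1B10 shared 19.7% of its 50-base stretches, with its neighbour AKR1B15. AKR7A2 and AKR7A3 shared 6.79% and 7.39% of theirs, with each other, while AKR1A1, AKR1B1 and AKR1D1 shared 0. Read length and the handling of reads that match several genes are not given in the sources used here, so how fragments were divided among the AKR1C genes is uncertain.

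**Figure D1:**
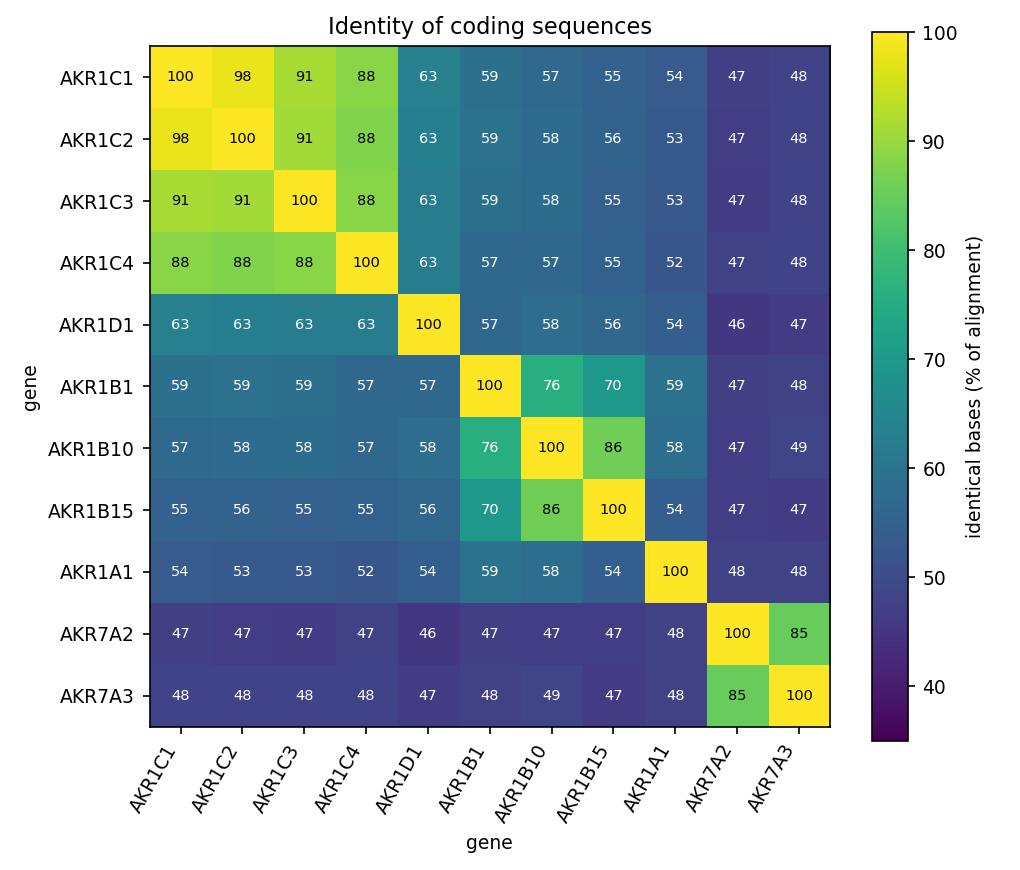
Identity of coding sequences between pairs of aldo-keto reductase genes, as the percentage of alignment positions with the same base (GENCODE 29, longest coding sequence per gene, with the neighbouring gene AKR1B15 added). The AKR1C genes form the bright block at the upper left, with AKR1C1 and AKR1C2 at 98.0%; AKR1D1 is at 62.6% to 63.2% to them.

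Promoters were near-copies in the same pair. The 250 bases before the RefSeq start of AKR1C1 and of AKR1C2 aligned over 254 positions, of which 245 were identical, 1 differed and 8 were gaps. AKR1C3 has 2 starts in the table. The window of the start shown here, from chr10:5048531-5048780 on the plus strand, was 71.4% identical to that of AKR1C1. The window of the other start, chr10:5094164-5094413 on the plus strand, was 69.2% identical to it. Which of these starts the cells use was not tested. The windows of AKR1C1, AKR1C2 and AKR1C3 are shown because these neighbouring genes differed in how far they stood above the control; the capitals mark the CCAAT motif, here on the reverse strand. The AKR1C1 window is chr10:4963165-4963414 on the plus strand and the AKR1C2 window chr10:5003858-5004107 on the minus strand (RefSeq, GRCh38.p14, 5′ to 3′).
AKR1C1: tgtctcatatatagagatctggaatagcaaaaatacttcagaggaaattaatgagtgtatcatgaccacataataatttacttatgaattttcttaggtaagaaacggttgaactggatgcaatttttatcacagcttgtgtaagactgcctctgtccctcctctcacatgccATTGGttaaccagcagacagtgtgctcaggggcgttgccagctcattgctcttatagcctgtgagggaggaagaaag
AKR1C2: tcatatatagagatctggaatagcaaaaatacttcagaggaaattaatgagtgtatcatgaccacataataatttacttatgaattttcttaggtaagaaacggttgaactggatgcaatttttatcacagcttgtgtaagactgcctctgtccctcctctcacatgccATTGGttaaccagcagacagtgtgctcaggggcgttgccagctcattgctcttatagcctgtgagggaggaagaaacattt
AKR1C3: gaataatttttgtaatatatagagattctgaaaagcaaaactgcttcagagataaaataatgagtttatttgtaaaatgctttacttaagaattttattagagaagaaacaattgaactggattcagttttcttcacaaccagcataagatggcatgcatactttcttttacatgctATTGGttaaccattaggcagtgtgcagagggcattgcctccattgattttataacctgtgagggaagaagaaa
Windows for 9 of the 10 genes were matched, all but AKR1B10, giving 12 windows. The antioxidant response element core TGACNNNGC, the sequence NRF2 is known to bind, was searched on both strands; matches were in 2 of the 12 windows, both of AKR7A2 and overlapping, where 10.9% of 35116 windows over all genes held one. CCAAT matches, also on both strands, were in 5 of the 12 windows, those of AKR1C1, AKR1C2 and AKR1C3 and 1 of AKR1B1, where 32.0% of all windows held one. The window of AKR1C4 held neither motif. Enhancers farther from the start were not searched.

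Values are FPKM, fragment counts divided by transcript length and by sequencing depth, so levels can be set beside each other between genes. FTO itself was at 2.55 FPKM in sh#7, 5.29 FPKM in sh#2 and 9.02 FPKM in the control. Estimated depth was 42.4 to 43.5 M fragments per library. Markers of hepatocytes summed to 8884 FPKM in sh#7, 15658 FPKM in sh#2 and 20277 FPKM in the control, with 0 of 9 at 0 in all libraries. Of these 9, 4 were at least 2-fold lower than the control in sh#7 and 1 in sh#2, where 2.48% and 0.723% of all compared genes were that much lower. Those of other cell types were low. They summed to 25.5 to 40.6 FPKM for blood and immune cells, mostly from CD68 and with PTPRC and CD3E listed at 0, to 1.19 to 3.77 FPKM for fibroblasts, and to 0.0567 to 0.196 FPKM for endothelium. The hepatocyte sum moved opposite to the AKR1C genes below, and its part in their differences was not tested. In such bulk RNA, fewer cells expressing a gene and less RNA per cell cannot be told apart.

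In all, 8 of the 10 genes averaged 1 FPKM or more and were compared. In sh#7, 3 of these 8 were at least 2-fold higher than the control and 0 were at least 2-fold lower on the log2(FPKM + 1) scale, where 2.35% of 11069 compared genes were higher and 2.48% lower. In sh#2, 1 of 8 was higher and 0 were lower, against 0.506% and 0.723% of all compared genes. Between the lines, 1 of 8 was at least 2-fold higher in sh#7 than in sh#2 and 1 was lower, against 1.45% and 1.52%. The sh#7 and sh#2 comparisons share the control library, so they are not independent of each other. The median log2 difference of the 8 genes was 0.40 in sh#7 and 0.31 in sh#2 against the control, where the medians of all compared genes were 0.16 and 0.10. Since FPKM values as deposited place most genes slightly above the control in this way, log2 differences relative to those medians are also given. Another scaling moves the split of calls over all genes: higher genes made up 48.6% of those past 2-fold in sh#7 and 41.2% in sh#2 as deposited, against 33.4% and 30.7% after median-of-ratios scaling.

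**Figure D2:**
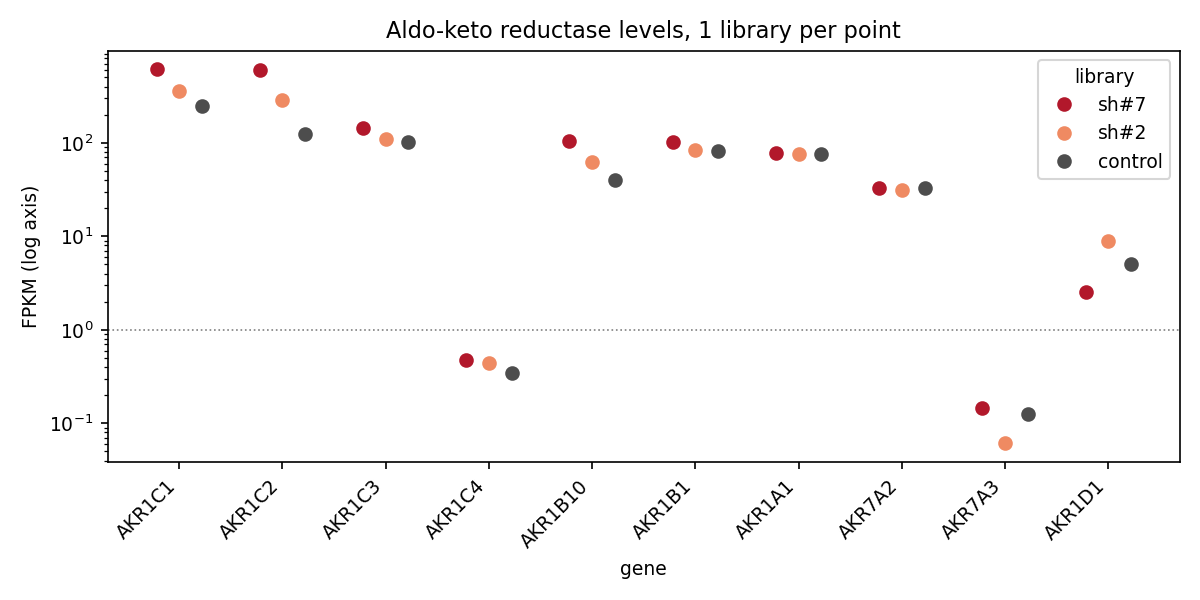
Level of each aldo-keto reductase gene in FPKM (log axis); each point is 1 library, in the order sh#7, sh#2 and control within a gene, and the dotted line marks 1 FPKM. AKR1C1, AKR1C2 and AKR1B10 step down from sh#7 to the control, AKR1A1 and AKR7A2 lie level, and AKR1D1 is highest in sh#2 and lowest in sh#7.

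AKR1C2 stood farthest above the control. Its enzyme reduces dihydrotestosterone, which inactivates it, and binds bile acids. AKR1C2 was at 602 FPKM in sh#7, 286 FPKM in sh#2 and 126 FPKM in the control. It was therefore highest in sh#7 and lowest in the control, with sh#2 between them. In sh#7 the FPKM was 4.79 times the control (95% interval 4.65 to 4.93), a log2 difference of 2.25, or 2.09 relative to the median of all genes, at percentile 99.8 of compared genes. The sh#2 level was 2.28 times the control (2.203 to 2.351), with a log2 difference of 1.18, or 1.08 relative to the median. Set directly against sh#2, sh#7 was 2.10 times as high (2.06 to 2.15), a log2 difference of 1.07. Here and below, intervals are exact for estimated fragments and hold counting error alone; they leave out differences between cultures or the division of fragments among similar genes.

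AKR1C1, whose enzyme inactivates progesterone, was the highest gene of the set in every library. AKR1C1 was at 609.5 FPKM in sh#7, 361 FPKM in sh#2 and 247 FPKM in the control. The libraries thus stood in the same order as for AKR1C2, over a smaller range. In sh#7 AKR1C1 was 2.47 times the control (2.41 to 2.52), with a log2 difference of 1.30, and it ranked 122nd of the compared genes there, against 329th in the control. In sh#2 it was 1.46 times the control (1.424 to 1.497), with a log2 difference of 0.54 that did not reach 2-fold.

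The balance within the pair moved as well. AKR1C1 was 1.013 times as high as AKR1C2 in sh#7, 1.26 times in sh#2 and 1.97 times in the control. The FPKM of the pair was also summed. How fragments were divided within the pair leaves this sum unchanged only if both genes were given equal transcript lengths, which is not known here. Nor does the sum settle fragments shared with AKR1C3, or fragments dropped or counted more than once. It was 1211 FPKM in sh#7, 647 FPKM in sh#2 and 373 FPKM in the control. The summed level was 3.25 times the control in sh#7 and 1.73 times in sh#2, log2 differences of 1.70 and 0.79. So the sum was past 2-fold in sh#7 and not in sh#2, where AKR1C2 alone had passed it. Between the lines the sum was 1.87 times as high in sh#7 as in sh#2, a log2 difference of 0.90, also short of 2-fold.

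AKR1C3, whose enzyme makes testosterone and prostaglandin F, differed less from the control than AKR1C1 and AKR1C2 did. Its level was 145 FPKM in sh#7, 109 FPKM in sh#2 and 103 FPKM in the control. The sh#7 level was 1.40 times the control (1.35 to 1.46), a log2 difference of 0.48, or 0.33 relative to the median of all genes. In sh#2 the log2 difference was 0.08, and it turned to -0.04 with median-of-ratios and -0.02 with upper-quartile scaling. AKR1C4, the form known from adult liver for work on bile acid precursors, had a mean under 1 FPKM and was not compared. Its values were 0.481 FPKM in sh#7, 0.445 FPKM in sh#2 and 0.348 FPKM in the control, on about 20, 19 and 14 estimated fragments. The sh#7 to control ratio of 1.38 had an interval from 0.691 to 3.08, so a difference was not detectable at this depth. AKR1C4 also shares short stretches with its neighbours, whose levels were far higher, and fragments of theirs counted for it cannot be told apart from its own.

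AKR1B10 reduces retinal and lipid-derived aldehydes and is known to be raised in liver and lung cancers. AKR1B10 was at 106 FPKM in sh#7, 61.8 FPKM in sh#2 and 40.2 FPKM in the control. Both knockdown lines were above the control, and sh#7 above sh#2. The sh#7 level was 2.63 times the control (2.48 to 2.78), with a log2 difference of 1.37, or 1.21 relative to the median. For sh#2 the ratio was 1.54 (1.44 to 1.64), with a log2 difference of 0.61. AKR1B1, aldose reductase, makes sorbitol from glucose in the first step of the polyol pathway. AKR1B1 was at 103 FPKM in sh#7, 84.6 FPKM in sh#2 and 82.4 FPKM in the control. Its sh#7 level was 1.25 times the control (1.20 to 1.31), within 2-fold. Its sh#2 log2 difference was 0.04, which became -0.08 with median-of-ratios and -0.06 with upper-quartile scaling. AKR1B10 was thus below AKR1B1 in sh#2 and in the control, and about level with it in sh#7, where 105.7 and 103.1 FPKM were measured; no replicates are at hand to separate them.

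AKR1D1 lay on opposite sides of the control in the lines. AKR1D1 encodes the steroid beta-reductase of bile acid synthesis, which also clears steroid hormones. It was at 2.51 FPKM in sh#7, 8.83 FPKM in sh#2 and 5.11 FPKM in the control, on about 105, 377 and 214 estimated fragments. The sh#7 level was 49.2% of the control (38.8% to 62.7%), a log2 difference of -0.80, which came to -0.995 with a pseudocount of 0.1. The plain FPKM ratio was thus past 2-fold lower, while the log2(FPKM + 1) difference was not. In contrast sh#2 was at 173% of the control (146% to 206%), a log2 difference of 0.69. Set directly against each other, sh#7 was at 28.4% of sh#2 (22.8% to 35.6%), a log2 difference of -1.48 at percentile 0.669 of compared genes. Its levels were thus not ordered as those of FTO were.

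The remaining enzymes showed little difference. AKR1A1, aldehyde reductase, acts on a wide range of aldehydes. AKR1A1 was at 77.0 FPKM in sh#7, 75.4 FPKM in sh#2 and 76.2 FPKM in the control. AKR7A2, which reduces succinic semialdehyde, was at 33.3 FPKM in sh#7, 31.2 FPKM in sh#2 and 32.5 FPKM in the control. Relative to the control, intervals of the FPKM ratio ran from 0.963 to 1.06 in sh#7 and 0.943 to 1.04 in sh#2 for AKR1A1, and from 0.954 to 1.101 in sh#7 and 0.892 to 1.03 in sh#2 for AKR7A2. The sh#7 log2 differences of 0.02 for AKR1A1 and 0.03 for AKR7A2 turned to -0.17 and -0.15 under median-of-ratios scaling, and to -0.10 and -0.08 under upper-quartile scaling. AKR7A3, which reduces the dialdehyde of aflatoxin, was at 0.146 FPKM in sh#7, 0.0611 FPKM in sh#2 and 0.124 FPKM in the control, on about 6, 3 and 5 estimated fragments, too few to compare. Fragments of AKR7A2 counted for AKR7A3 cannot be told apart from its own.

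**Figure D3:**
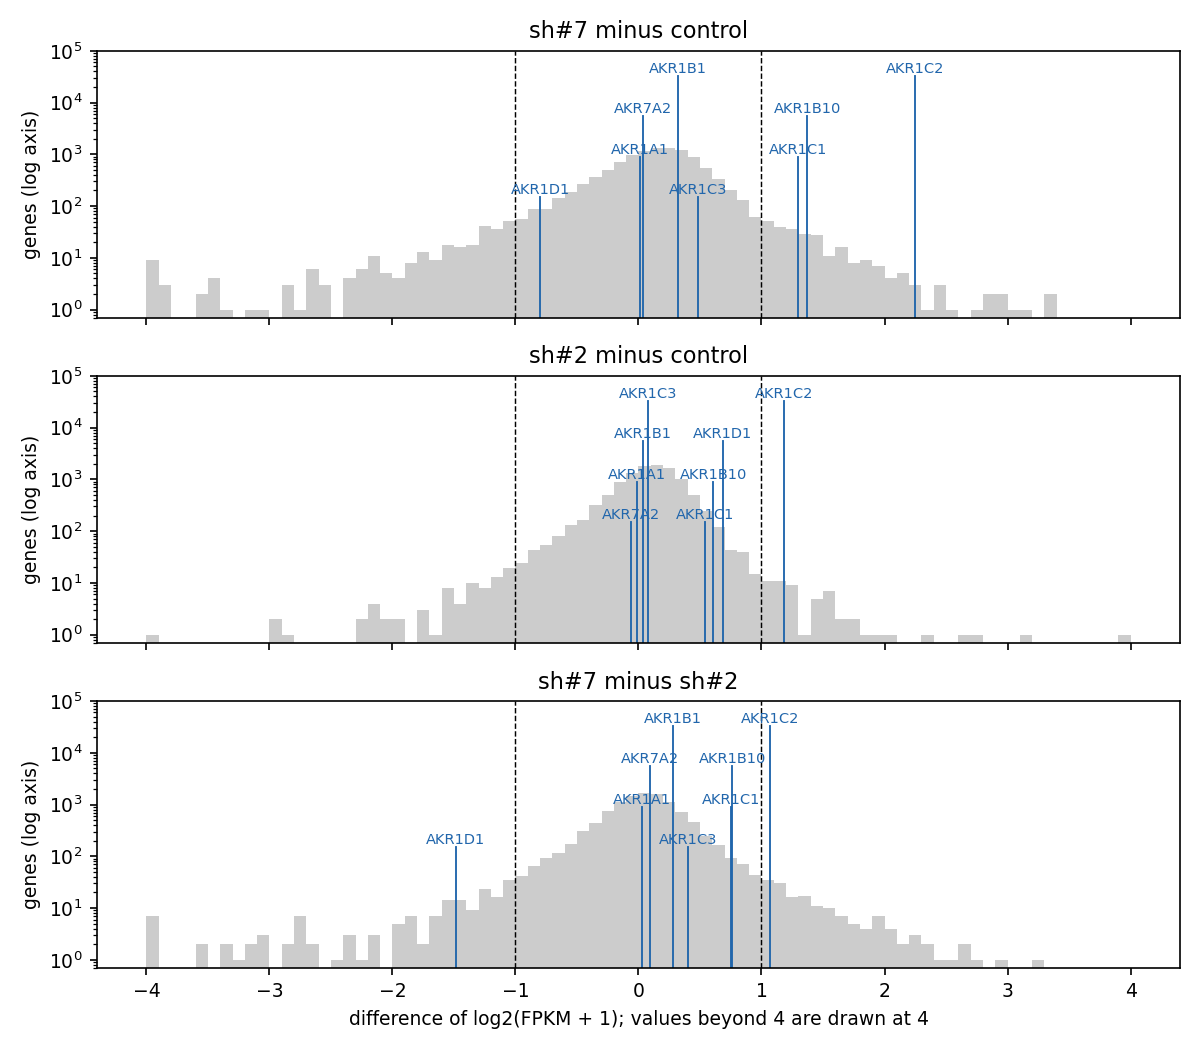
Differences of log2(FPKM + 1) for the 8 compared aldo-keto reductase genes (blue lines, whose heights only separate the names) over the histogram of 11069 compared genes (grey, log axis), for sh#7 minus control, sh#2 minus control and sh#7 minus sh#2; dashed lines mark 2-fold. AKR1C2 lies past 2-fold higher in each panel, and AKR1D1 past 2-fold lower in sh#7 minus sh#2.

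Summed over the 10 genes, the level was 1678 FPKM in sh#7, 1019 FPKM in sh#2 and 713 FPKM in the control, or 0.316%, 0.183% and 0.126% of all FPKM. AKR1C1 and AKR1C2 held 72.2% of the sum in sh#7, 63.5% in sh#2 and 52.3% in the control. Without this pair the other 8 genes summed to 467 FPKM in sh#7, 372 FPKM in sh#2 and 340.1 FPKM in the control, which is 1.37 and 1.09 times the control in sh#7 and sh#2. The share of AKR1C2 alone was 35.9% in sh#7, 28.1% in sh#2 and 17.6% in the control, while that of AKR1C1 was 36.3%, 35.4% and 34.7%. The order of genes in the control was AKR1C1, AKR1C2, AKR1C3, AKR1B1, AKR1A1, AKR1B10, AKR7A2, AKR1D1, AKR1C4 and AKR7A3. In sh#7, AKR1B10 stood between AKR1C3 and AKR1B1, and the other genes kept their order.

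**Figure D4:**
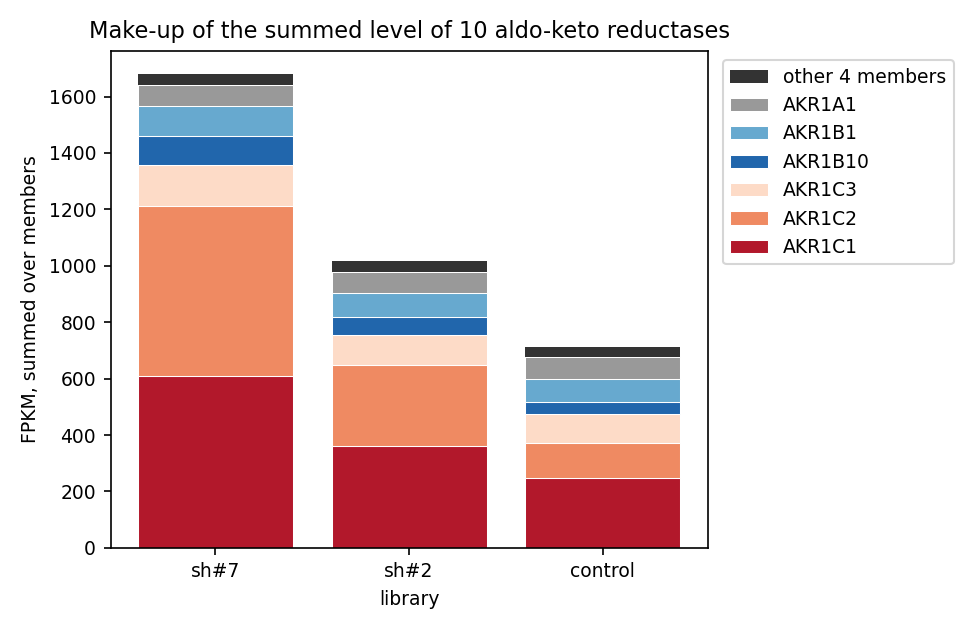
FPKM summed over the 10 aldo-keto reductase genes in each library, split by gene. The summed bar is 1678 FPKM in sh#7, 1019 FPKM in sh#2 and 713 FPKM in the control, and the AKR1C2 segment has the largest change in share.

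Of 8 other symbols of the AKR1, AKR7 and KCNAB groups, AKR1B15 and KCNAB2 were compared. AKR1B15, next to AKR1B10 and a close copy of it, was at 6.08 FPKM in sh#7, 2.73 FPKM in sh#2 and 2.09 FPKM in the control, a log2 difference of 1.19 for sh#7. AKR1B10 was 17.4 to 22.6 times as high as AKR1B15 in the 3 libraries, and fragments of AKR1B10 counted for AKR1B15 cannot be told apart from its own. KCNAB2, a potassium channel subunit of the same fold, was at 13.2 FPKM in sh#7, 9.41 FPKM in sh#2 and 6.803 FPKM in the control, within 2-fold. AKR1E2 was listed at 0 in every library, as were ME1 and DHRSX of the lists below; whether such a 0 is a missing estimate or a low level cannot be told apart here. The symbols AKR1CL1, AKR7A2P1, AKR7L, KCNAB1 and KCNAB3 had means of at most 0.149 FPKM.

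The 3 genes with a pattern most like AKR1C2, by distance between their pairs of log2 differences from the control among 8156 candidates averaging 5 FPKM or more, were ALDH1A1, FSCN1 and NUPR1. ALDH1A1, which oxidises retinal, was at 1560 FPKM in sh#7, 658 FPKM in sh#2 and 319.6 FPKM in the control. FSCN1, an actin-bundling protein, was at 294 FPKM in sh#7, 136 FPKM in sh#2 and 65.6 FPKM in the control. NUPR1, a stress-induced nuclear protein, was at 152 FPKM in sh#7, 57.2 FPKM in sh#2 and 30.5 FPKM in the control. Likeness over 3 libraries is a description of these values alone.

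NRF2 and its core targets were listed without any aldo-keto reductase, and 23 of 24 were compared. In sh#7, 4 of these 23 were at least 2-fold higher and 0 lower than the control, beside 2.35% and 2.48% of all compared genes, and 19 lay above the median of all genes. In sh#2, 0 of 23 passed 2-fold either way, or 1 higher with a pseudocount of 0.1, beside 0.506% and 0.723% of all compared genes, and 14 lay above that median. The list median relative to all genes was 0.26 in sh#7 and 0.06 in sh#2. EPHX1, an epoxide hydrolase, was at 136 FPKM in sh#7, 66.3 FPKM in sh#2 and 53.7 FPKM in the control, and UGDH, which makes UDP-glucuronate, at 277, 143 and 123 FPKM in the same order. ABCC3, an organic anion exporter named after its values were seen, was also past 2-fold in sh#7. ABCC3 was at 26.5 FPKM in sh#7, 5.50 FPKM in sh#2 and 8.85 FPKM in the control. OSGIN1, an oxidative stress response gene, was at 17.4, 13.4 and 9.85 FPKM in sh#7, sh#2 and the control. The gene of NRF2 itself, NFE2L2, also named after its values were seen, was at 69.8, 57.6 and 53.7 FPKM. Between the lines, 2 of 23 were at least 2-fold higher in sh#7 than in sh#2 and 1 was lower, beside 1.45% and 1.52% of all compared genes. The lower gene was SLC7A11, named after its values were seen, with a log2 difference of -1.22. SLC7A11 was at 1.28 FPKM in sh#7, 4.31 FPKM in sh#2 and 1.92 FPKM in the control.

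Of the enzymes that supply NADPH, the cofactor of the reductases, 11 of 13 were compared. At least 2-fold higher than the control were 1 of 11 in sh#7 and 0 of 11 in sh#2, and 0 were at least 2-fold lower in either line. Over all compared genes, 2.35% were higher and 2.48% lower in sh#7, and 0.506% and 0.723% in sh#2. Genes of this list, PGD, TALDO1, TKT and ME1 among them, also stand in the NRF2 list. A gene past 2-fold can therefore count in both lists, and their counts are not independent of each other. TALDO1, transaldolase, was at 224 FPKM in sh#7, 199 FPKM in sh#2 and 168 FPKM in the control. MTHFD1, an enzyme of folate metabolism, was at 86.8, 71.2 and 58.0 FPKM, and the mitochondrial transhydrogenase gene NNT at 13.2, 12.4 and 10.8 FPKM, each in that order. The list medians relative to all genes were 0.12 in sh#7 and -0.0019 in sh#2.

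Reductases of other families differed in both directions. Of 15 compared carbonyl reductases outside the set, 1 was at least 2-fold higher in sh#7 and 1 was at least 2-fold lower in sh#2, and both counts were PTGR1, a prostaglandin reductase. Over all compared genes, 2.35% were that much higher in sh#7 and 0.723% that much lower in sh#2. PTGR1, named after its values were seen, was at 86.0 FPKM in sh#7, 13.0 FPKM in sh#2 and 29.5 FPKM in the control. DHRS3, which reduces retinal, was at 34.7 FPKM in sh#7, 29.3 FPKM in sh#2 and 50.1 FPKM in the control. The list medians relative to all genes were -0.17 in sh#7 and -0.02 in sh#2. RDH13, DHRS1 and RDH10 had log2 differences from the control of 0.44, -0.67 and 0.34 in sh#7 and of 0.60, -0.23 and 0.34 in sh#2.

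Lists of genes that share a pathway with single reductases follow. As 2.35% of all compared genes were at least 2-fold higher and 2.48% lower in sh#7, and 0.506% and 0.723% in sh#2, a count of 0 in lists this short is near the share of all genes. In the polyol and fructose list, which follows AKR1B1, 0 of 6 compared genes passed 2-fold in sh#7 or sh#2, with medians relative to all genes of -0.29 and -0.08. FN3K, which removes fructose adducts from proteins, was at 75.2 FPKM in sh#7, 93.5 FPKM in sh#2 and 56.7 FPKM in the control. The triokinase gene listed as DAK was at 14.4, 21.8 and 26.1 FPKM in sh#7, sh#2 and the control, with KHK, ketohexokinase, at 39.9, 38.5 and 46.8 FPKM and FN3KRP at 64.4, 48.8 and 48.7 FPKM.

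Among steroid reductases and hydroxysteroid dehydrogenases of other families, 0 of 15 compared genes lay past 2-fold in sh#7 or sh#2, and the relative medians were -0.04 in sh#7 and -0.01 in sh#2. HSD17B11 was at 33.8 FPKM in sh#7, 40.4 FPKM in sh#2 and 59.0 FPKM in the control. HSD17B10, a mitochondrial dehydrogenase, was at 106.1 FPKM in sh#7, 104.7 FPKM in sh#2 and 74.1 FPKM in the control. HSD11B2, which inactivates cortisol, and HSD17B8 had log2 differences from the control of 0.48 and -0.33 in sh#7 and of 0.63 and -0.62 in sh#2.

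For bile acid synthesis, the pathway of AKR1D1 and AKR1C4, 0 of 8 compared genes lay past 2-fold in sh#7 or sh#2, and the relative medians were -0.27 in sh#7 and -0.04 in sh#2. ACOX2, the oxidase that shortens the side chain of bile acid precursors, was at 4.13 FPKM in sh#7, 6.03 FPKM in sh#2 and 8.95 FPKM in the control, a log2 difference of -0.96 in sh#7. The count of genes at least 2-fold lower in sh#7 became 1 with a pseudocount of 0.1, with median-of-ratios scaling and with upper-quartile scaling. It was also 1 with no minimum, but the gene counted there was BAAT, not ACOX2. BAAT, named after its values were seen, averaged under 1 FPKM. It was at 0.201 FPKM in sh#7, 0.639 FPKM in sh#2 and 1.51 FPKM in the control, a log2 difference of -1.06 in sh#7. ACOX2 was below the control in sh#2 as well, where AKR1D1 was above it. SLC27A5, HSD3B7 and AMACR had log2 differences of -0.39, 0.12 and -0.26 in sh#7 and of -0.33, 0.18 and 0.09 in sh#2.

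**Figure D5:**
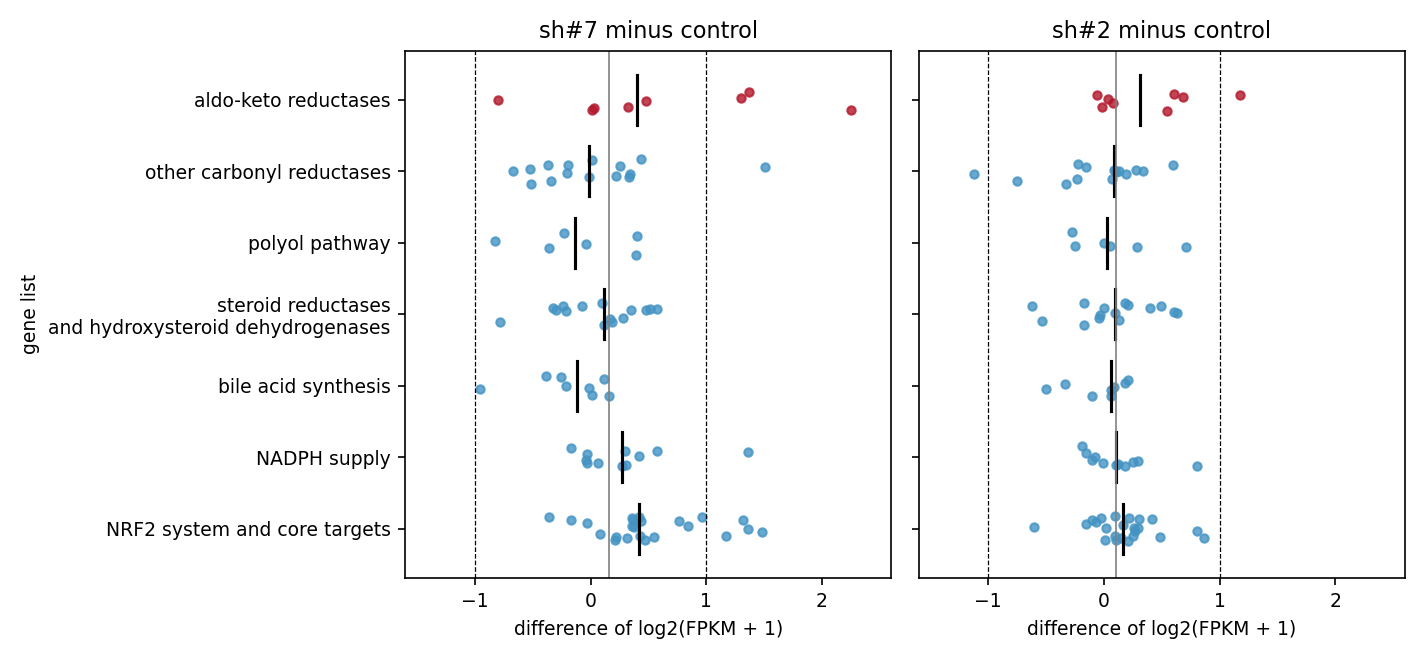
Differences of log2(FPKM + 1) from the control for the compared genes of the aldo-keto reductase set (red) and of 6 related gene lists (blue), in sh#7 and sh#2; each point is a gene, black bars are list medians, the grey line is the median of all compared genes and dashed lines mark 2-fold. Points past 2-fold higher in sh#7 belong to the aldo-keto reductases and to the NRF2, NADPH supply and carbonyl reductase lists.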

How the data were processed

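RNA from 3 Hep-G2 libraries, 1 per group, was sequenced; the authors deposited 1 table of FPKM values per gene symbol. STAR 2.4.0j, HTSeq and Cufflinks 2.2.1 with build hg19 were used per the submitters' processing notes; their roles are not given in the sources used here. From these values, log2(FPKM + 1) differences were computed for genes averaging 1 FPKM or more, with Python 3.11.15, pandas 2.3.3 and SciPy 1.17.1. A 2-fold difference served as a size, not a test. Depth was estimated from low values that mark single fragments. Fragments per gene were estimated from coding length, which is shorter than the transcript, and gave exact (Clopper-Pearson) 95% intervals. The code was tested on simulated data. Coding sequences came from GENCODE 29 and were aligned with Biopython 1.88; promoter windows came from RefSeq (GRCh38.p14), a newer build than hg19. Lists were matched by symbol or its RefSeq synonym. From each of the 6 related lists the 4 compared genes with the largest absolute mean difference of the lines from the control were named. All members, FTO, the rest of the superfamily and the 3 genes most like the leading member were named too. ABCC3, NFE2L2, SLC7A11, PTGR1 and BAAT were named outside this rule, after their values were seen. The members and lists were chosen with earlier results of these data known. Alternatives were another pseudocount, scaling, filter, threshold, sums of AKR1C genes, and means in place of medians. A gene that the naming rule picked from those 6 lists is not reported here.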

Additional observations from a re-analysis of the deposited data

Results flagged for a closer look

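AKR1D1 lay on opposite sides of the control in the knockdown lines. Its log2(FPKM + 1) difference was -0.80 for sh#7 and 0.69 for sh#2, and both counting intervals left out an equal level. With 1 library per line the difference between lines was not tested.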

How the results depend on the processing

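No paired analysis was possible because sh#7, sh#2 and control are single libraries, which also leaves no replicate to drop. The count of members at least 2-fold higher or lower was the same at a pseudocount of 0.1, under median-of-ratios and upper-quartile scaling, at a minimum mean of 5 FPKM and with no minimum. Under median-of-ratios scaling AKR1C2, the 1 member higher in sh#7 than in sh#2, was at a log2 difference of 1.001, just past 2-fold. AKR1D1 in sh#7 against the control came to -0.995 with a pseudocount of 0.1, just short of it. With AKR1C1 and AKR1C2 summed, AKR1C2's 0.79 in sh#2 against the control and 0.90 in sh#7 against sh#2 were short of 2-fold, and no other member was past it upward there. At 1.5-fold the count of members was 1 lower in sh#7 than control, beside 684 of 11069 compared genes. It was 3 higher in sh#2 than control and 3 higher in sh#7 than sh#2, beside 295 and 569 of 11069. The members' relative median became a relative mean of 0.51 in sh#7, and with no minimum it was 0.061 in sh#2 and 0.18 for sh#7 against sh#2, since the 2 low members then count. Of 108 values of single members, 47 moved beyond their counting interval and 0 of those past 2-fold changed sign; AKR1C2 ran from 2.06 under median-of-ratios scaling to 2.26 with a pseudocount of 0.1 in sh#7 when taken alone, and was 1.51 with AKR1C1 to AKR1C4 summed. Of 306 list values, 30 moved. Over all genes, a pseudocount of 0.1 gave 394 higher in sh#7 and 106 higher and 138 lower in sh#2 than the control, and 252 higher in sh#7 than sh#2. A minimum mean of 5 FPKM gave 146, 24, 49 and 82 for these, with fewer genes compared. At 1.5-fold, sh#7 had 1064 genes higher and 684 lower, sh#2 had 295 and 301, and sh#7 against sh#2 had 569 and 504. Depth limits AKR1C4 and AKR7A3 most.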
